A study of Mus musculus with 26 samples.

Results

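Cytochrome P450 and other xenobiotic-handling enzymes of the mouse lung were followed as a set of 10 genes: Cyp1a1, Cyp1b1, Cyp2f2, Cyp2s1, Cyp4b1, Por, Ephx1, Fmo2, Aldh1a1 and Inmt. They were chosen by name, with earlier results of these data known, so their counts beside shares of all features are descriptions. Probes were matched to them through the accession that the array files give for each probe. All 10 had a matched probe, of 20660 genes with one, and Ephx1 had 2. The samples were lungs of MutaMouse animals, a transgenic mutation-reporter strain, labelled with an age of about 12 weeks. Whether that is the age at the first instillation or at collection is not settled here. Multiwalled carbon nanotubes of 2 kinds, NM-401 and Mitsui XNRi-7, were instilled into the trachea in mouse serum weekly for 4 weeks at 42.7 or 128 µg per mouse, with lungs collected 56 days following the final one. The 5 groups, of 5 animals each, are called control, NM-401 low, NM-401 high and, for the other material, Mitsui low and high. Values given as a run of 4 follow this order of the exposed groups. The dose is given per mouse, without stating if it is that of each instillation. The labels disagree on sex, with female on the samples and male in the design, and on the controls, which were either vehicle animals or animals given olive oil by gavage, so the handling of the controls is not settled. RNA came from random lung sections and the labels name no separate time, diet or genotype for any group.

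Microsomal P450s insert oxygen into lipophilic compounds, and NADPH-cytochrome P450 reductase, the product of Por, hands them the electrons. The epoxides, aldehydes and amines that follow are taken up by epoxide hydrolases, aldehyde dehydrogenases, flavin monooxygenases and transferases. In the lung this machinery is known for detoxifying inhaled chemicals and also for turning some of them, such as naphthalene or furans, into reactive products in the cells that hold the enzymes. Cyp1a1 and Cyp1b1 are classical targets of the aryl hydrocarbon receptor, which senses polycyclic aromatic compounds.

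Each lung RNA was labelled with Cy5 and hybridised against a universal mouse reference RNA in Cy3, so every level below is a log2 ratio of lung over reference for 1 probe and is not comparable between genes. A gene counts as changed where limma's moderated test gave a Benjamini-Hochberg adjusted p under 0.05 over all 22950 features tested. Of the 10 genes, 9 were tested, and each of the 9 was well above background in Cy5 in all 25 animals. Per array, 45.8% to 62.1% of probes passed the scanner's test for Cy5 signal over background, with group means between 52.5% in Mitsui low and 56.6% in NM-401 high. The 13, 11 and 13 tested markers of alveolar type 2, alveolar type 1 and club cells were above background in all 25 animals. Some liver and cardiac markers, such as Fabp1 and Myh6, were too, so detection does not by itself bear out the lung label. In whole lung, fewer cells of a type and less RNA per cell cannot be told apart.

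The upstream sequences are shown for 4 of the genes that recur in the results. Cyp1b1 was the gene that rose, Por differed between the materials, and Cyp4b1 and Inmt fell in every exposed group. Each is the 250 bases before a transcription start in RefSeq (build GRCm38.p6), read 5′ to 3′ on the gene's strand, with capitals marking GCGTG or its reverse complement CACGC, the core letters bound by the aryl hydrocarbon receptor.
Cyp1b1, chr17:79715062-79715311, minus strand: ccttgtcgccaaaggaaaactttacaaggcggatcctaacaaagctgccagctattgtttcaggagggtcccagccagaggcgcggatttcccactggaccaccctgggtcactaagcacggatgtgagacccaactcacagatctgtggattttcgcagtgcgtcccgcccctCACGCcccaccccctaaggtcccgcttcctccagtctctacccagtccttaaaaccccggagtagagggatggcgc
Por, chr5:135688895-135689144, plus strand: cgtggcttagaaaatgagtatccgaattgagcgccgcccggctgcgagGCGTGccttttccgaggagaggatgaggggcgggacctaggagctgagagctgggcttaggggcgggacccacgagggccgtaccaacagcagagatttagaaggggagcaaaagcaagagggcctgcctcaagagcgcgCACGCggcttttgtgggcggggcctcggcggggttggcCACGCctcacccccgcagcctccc
Cyp4b1, chr4:115647722-115647971, minus strand: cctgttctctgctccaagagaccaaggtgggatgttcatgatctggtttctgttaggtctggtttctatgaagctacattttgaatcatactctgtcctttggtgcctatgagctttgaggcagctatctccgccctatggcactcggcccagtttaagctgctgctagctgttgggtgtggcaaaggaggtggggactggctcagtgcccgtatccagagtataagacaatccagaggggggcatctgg
Inmt, chr6:55174991-55175240, minus strand: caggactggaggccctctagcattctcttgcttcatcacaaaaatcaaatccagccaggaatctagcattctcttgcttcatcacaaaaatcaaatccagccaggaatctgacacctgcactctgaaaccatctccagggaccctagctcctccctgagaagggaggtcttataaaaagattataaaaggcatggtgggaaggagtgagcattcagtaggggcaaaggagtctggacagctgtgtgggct
The Cyp1b1 window held the motif once, on the opposite strand, 76 to 72 bases before the start. The Por window held it 3 times, at 202 to 198 bases on the gene's strand and at 62 to 58 and 24 to 20 bases on the other. The Cyp1a1 window held it at 54 to 50 bases, and the windows of the other 7 genes, among them Cyp4b1 and Inmt, did not hold these letters. Over 32851 RefSeq windows of 250 bases, 28.2% held GCGTG on either strand. TGACNNNGC, the core of the antioxidant response element bound by NRF2, was in no window of the 10 genes and in 10.2% of all windows. A match is a description of letters and no binding was measured here.

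In lungs given the high dose of NM-401 most of the enzymes differed from control, mainly downward. In NM-401 high, 7 of the 9 tested genes fell against control and Cyp1b1 rose, while Cyp2s1 did not pass the test. Over all features, 34.8% were called in that comparison, 16.4% lower and 18.4% higher. In NM-401 low 2 of 9 fell, against 16.9% of all features called and 8% called lower. In Mitsui low 2 of 9 fell, against 20.9% called and 10.4% lower, and in Mitsui high 3 of 9 fell, against 23.7% called and 11% lower. Cyp4b1 and Inmt were the genes that fell in all 4 exposed groups. The median change of the 9 was -0.23, -0.46, -0.08 and -0.13 on the log2 scale, where the median of all features lay between -0.0047 and -0.00096. Exposed and control animals did not overlap for 4, 5, 3 and 2 of the 9 genes, against 11.6%, 22.5%, 16.1% and 14.6% of all features. Leaving out control animal 4 left 5 genes called in NM-401 high and 1 in NM-401 low, and leaving out NM-401 high animal 2 raised the count in Mitsui low to 4. The 4 comparisons share the control animals, so their counts are not independent of each other. When each array was centred on its median in place of loess, no member was called in any comparison. The median of all features then shifted by -0.11, 0.17, -0.14 and -0.13 in the 4 exposed groups, and the median standard error rose from 0.0951 to 0.309. Relative to those shifts all 15 changes called against control kept their sign.

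**Figure D1:**
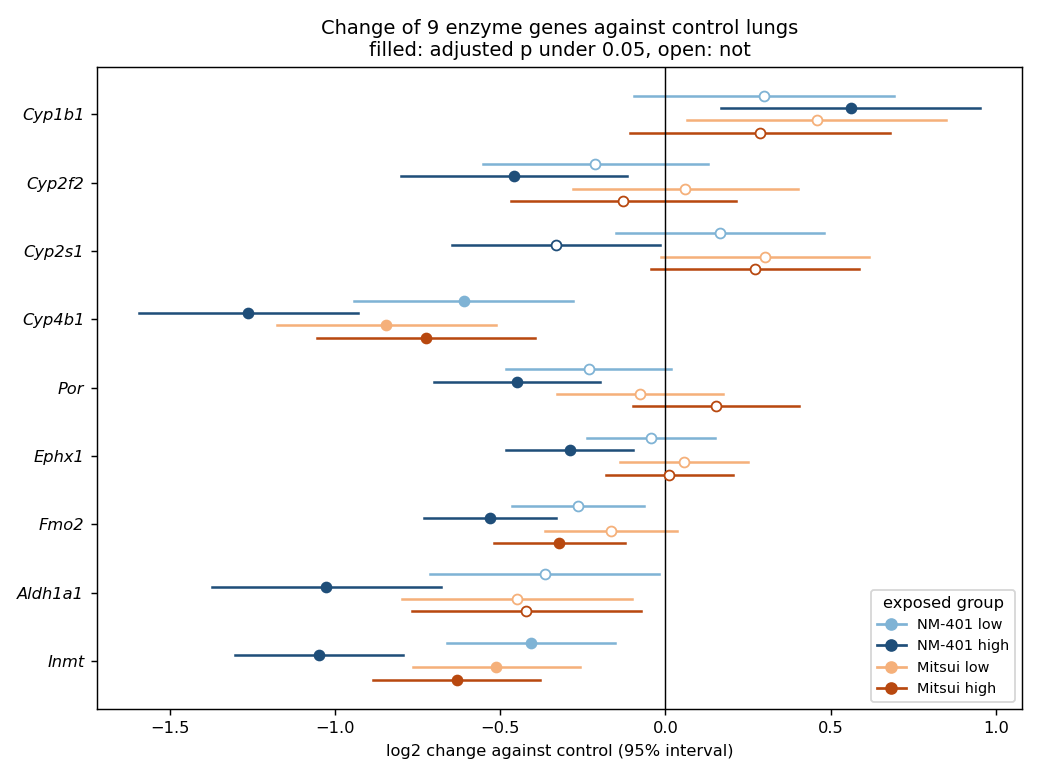
Log2 change of the 9 tested genes in each exposed group against control (x axis), with 95% intervals. Filled points passed an adjusted p under 0.05. Cyp4b1 and Inmt are filled and left of 0 in all 4 groups, Cyp1b1 is filled and right of 0 in NM-401 high alone, and Cyp2s1 is open in every group.

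Cyp1a1, the most inducible aryl hydrocarbon receptor target among the P450s, was near the detection limit. Its Cy5 signal was well above background in 2 of 5 control animals, 1 of 5 in NM-401 low, 0 of 5 in NM-401 high, 0 of 5 in Mitsui low and 1 of 5 in Mitsui high. The Cy5 signal of its spot was 1.06 to 1.69 times its local background over the 26 arrays, and its Cy3 signal was well above background on none. It was therefore left out of the main test, and no fold is given. In a limma fit of all probes without the filter it passed against control in no exposed group. The lowest adjusted p over all probes was 0.127, in NM-401 high.

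Cyp1b1, which oxidises polycyclic hydrocarbons and oestrogens, was the one member that rose. In control animals its log2 ratios were -2.13, -1.35, -1.88, -2.13 and -2.08. In NM-401 high they were -1.42, -0.54, -1.47, -1.58 and -1.77, and 1 control animal lay inside the exposed range. The group means were -1.91 ± 0.33 and -1.35 ± 0.47 (SD, n = 5), a rise of 0.56 (SE 0.190, 1.47-fold, adjusted p = 0.0244). Within the 3 slides that held both groups the differences were 0.456 to 1.103. The call was lost when control animal 1, 4 or 5 or NM-401 high animal 2 was left out, and without the last of these the rise was 0.36 (adjusted p = 0.0941). The Mitsui low animals read -1.38, -1.43, -1.48, -1.48 and -1.52, the tightest of the 5 groups, with a difference from control of 0.46 (adjusted p = 0.0924). The differences in NM-401 low and Mitsui high were 0.30 and 0.29 (adjusted p = 0.317 and 0.303). Every exposed group had a higher mean than control, and no step between neighbouring group means exceeded the larger SD of the pair. Leaving out control animal 2, the highest control, brought Mitsui low to 0.60 and past the test (adjusted p = 0.0270), and leaving out NM-401 high animal 2 left it at 0.46 and past the test (adjusted p = 0.0336).

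Cyp2f2, the club cell P450 known for activating naphthalene, fell in NM-401 high and passed in no other exposed group, though the difference between the NM-401 doses did not pass either (-0.25, adjusted p = 0.462). Control animals read 6.56, 6.34, 7.08, 6.98 and 6.72 and NM-401 high animals 6.52, 6.59, 5.99, 6.16 and 6.12. The ranges overlapped, with means of 6.73 ± 0.30 and 6.28 ± 0.26 (SD, n = 5), a fall of 1.37-fold (log2 change -0.46, SE 0.165, adjusted p = 0.0339). Within slides the change was -0.83 to -0.35. The call was lost on leaving out any of control animals 3, 4 and 5 or NM-401 high animals 3, 4 and 5, with an adjusted p of up to 0.102. With the Cy5 channel alone, an alternative added after the data were seen, the fall was larger, at -1.12 (adjusted p = 2.02e-05). The difference between the NM-401 doses then passed (-0.69, adjusted p = 0.0229). With median centring the NM-401 high change was -0.03, or -0.195 relative to the median of all features, and was not called. The dose difference was then 0.32, or 0.025 relative to that median. In the main fit the changes in NM-401 low, Mitsui low and Mitsui high were -0.21, 0.06 and -0.13, with adjusted p of 0.434, 0.846 and 0.636. The club cell markers moved in both directions in NM-401 high, with 3 of 13 higher and 3 lower, and the mean of the list was 3.04 to 3.78 in control animals and 3.74 to 4.62 in NM-401 high. The part of club cell content in the Cyp2f2 values was not tested.

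Cyp2s1, a P450 of epithelia, passed the test in no comparison. Control animals read 3.29, 3.19, 3.55, 3.78 and 3.24 and NM-401 high animals 2.90, 3.62, 2.88, 3.29 and 2.71. The change was -0.33 (95% interval -0.65 to -0.02, adjusted p = 0.0989), and it was called without NM-401 high animal 2, at -0.47 (adjusted p = 0.0128). In the other exposed groups the animals spanned 3.41 to 4.16, and the changes were 0.17, 0.30 and 0.27 in NM-401 low, Mitsui low and Mitsui high (adjusted p = 0.520, 0.176 and 0.214). NM-401 high thus had the lowest mean of the 5 groups and the other exposed groups the highest.

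Cyp4b1, which activates furans and hydroxylates fatty acids and is a typical lung P450, fell furthest. Control animals read 7.44, 7.78, 8.02, 7.80 and 7.68. NM-401 low animals read 7.17, 6.98, 7.23, 7.29 and 7.00, and NM-401 high animals 6.67, 6.62, 6.08, 6.94 and 6.11. Mitsui low animals read 7.00, 7.02, 6.79, 6.80 and 6.89, and Mitsui high animals 7.06, 7.23, 7.34, 7.11 and 6.37. No exposed animal reached the lowest control value. Against the control mean of 7.74 ± 0.21 (SD, n = 5) the fall was 1.53-fold in NM-401 low (log2 change -0.61, adjusted p = 0.0103), 2.40-fold in NM-401 high (-1.26, adjusted p = 1.59e-06), 1.80-fold in Mitsui low (-0.85, adjusted p = 0.000545) and 1.65-fold in Mitsui high (-0.72, adjusted p = 0.00183), each with SE 0.160. Within slides the changes were -1.02 to -0.27, -1.36 to -1.21, -1.15 to -0.67 and -1.19 to -0.58 in the same order. In the order of group means, the steps from NM-401 high to the next group and from the highest exposed group to control exceeded the larger SD of the pair, while the 3 groups in between did not separate.

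The size of the Cyp4b1 change differed between ways of forming the ratio. Its Cy3 spot was well above background on 6 of 26 arrays, and the part of that weak reference signal was not tested. With the ratios that Agilent Feature Extraction wrote to the files, the changes of Cyp4b1 were -0.36, -0.74, 0.09 and -0.25, and of these only NM-401 high passed the test (adjusted p = 0.0323). In the authors' deposited table they were -0.51 (adjusted p = 0.0611), -1.30, -0.77 and -0.67, the last 3 past the test. With the Cy5 channel taken alone they were -0.70, -1.37, -1.05 and -0.94, all 4 past the test. The Cy5 signal of the spot was 68.7 to 379 times its local background.

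Por, the reductase that feeds all microsomal P450s, fell with the high dose of NM-401. Control animals read 0.53, 0.74, 1.14, 1.00 and 0.62, and NM-401 high animals 0.57, 0.59, 0.24, 0.26 and 0.11. The means were 0.80 ± 0.26 and 0.35 ± 0.22 (SD, n = 5), a fall of 1.37-fold (log2 change -0.45, SE 0.121, adjusted p = 0.00540), and 2 exposed animals lay above the lowest control. Within slides the change was -0.82 to -0.15. Mitsui high animals read 0.87, 0.88, 1.31, 0.98 and 0.74, 0.15 above control (adjusted p = 0.404). NM-401 low and Mitsui low differed from control by -0.23 and -0.08 (adjusted p = 0.206 and 0.716). Of the windows printed above, those of Cyp1b1 and Por hold GCGTG or its reverse complement, and those of Cyp4b1 and Inmt do not. The part of these letters in the changes of the genes was not tested.

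Ephx1, the microsomal epoxide hydrolase that opens arene oxides, showed the smallest called change. Control animals read 1.096, 1.08, 1.34, 1.36 and 1.20, and NM-401 high animals 0.95, 1.07, 0.72, 1.00 and 0.88, so that the highest exposed animal fell just under the lowest control. The fall was 1.22-fold (log2 change -0.29, SE 0.0935, adjusted p = 0.0179). The call was lost without control animal 4 or NM-401 high animal 3 (adjusted p of up to 0.0641). The other probe of Ephx1 read -0.19 in the same comparison, with an adjusted p over all probes of 0.300, and with both probes averaged the change was -0.24 (adjusted p = 0.0525). In NM-401 low, Mitsui low and Mitsui high the changes were -0.04, 0.06 and 0.01, and the 95% intervals reached from -0.24 to 0.25.

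Fmo2, the main flavin-containing monooxygenase of lung, which oxygenates nitrogen and sulphur atoms, fell at the high dose of both materials, and its calls in the low dose groups differed between settings. Control animals read 4.68, 4.78, 4.70, 4.81 and 4.58. NM-401 high animals read 4.33, 4.22, 3.83, 4.29 and 4.20, all below control, and Mitsui high animals 4.38, 4.58, 4.52, 4.46 and 3.99, of which 1 was level with the lowest control. The falls were 1.45-fold (log2 change -0.53, adjusted p = 0.000132) and 1.25-fold (-0.32, adjusted p = 0.0173), each with SE 0.0966. Without Mitsui high animal 5 the latter was -0.22 and was not called (adjusted p = 0.0684). NM-401 low animals read 4.52, 4.45, 4.43, 4.43 and 4.37, all below control as well, with a change of -0.27 that missed the test (adjusted p = 0.0608). It passed with the slide as a block (-0.29, adjusted p = 0.0199) and on leaving out NM-401 high animal 3 or Mitsui high animal 5 (adjusted p = 0.0332 and 0.0224). Mitsui low differed from control by -0.16 (adjusted p = 0.251). With the Cy5 channel alone the Fmo2 changes were larger, at -0.78, -1.77, -1.13 and -1.24, and passed in all 4 exposed groups (adjusted p of 0.00808 at most), while Feature Extraction ratios gave -0.30 in NM-401 high (adjusted p = 0.00319).

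Aldh1a1, which oxidises retinal to retinoic acid and clears aldehydes from lipid peroxidation, fell in NM-401 high. Control animals read 5.82, 5.78, 6.08, 5.93 and 5.87, and NM-401 high animals 4.84, 5.45, 4.45, 5.24 and 4.37. The means were 5.89 ± 0.12 and 4.87 ± 0.47 (SD, n = 5), a fall of 2.04-fold (log2 change -1.03, SE 0.168, adjusted p = 4.01e-05), with no overlap. Within slides the change was -1.25 to -0.89. NM-401 low animals read 5.47, 5.42, 5.53, 5.70 and 5.51 and Mitsui low animals 5.39, 5.50, 5.58, 5.31 and 5.44. Both groups lay wholly below control, with changes of -0.37 and -0.45 that missed the test (adjusted p = 0.145 and 0.0592). Mitsui high animals read 5.27, 5.81, 5.93, 5.27 and 5.09, of which 2 fell within the control range, and the change was -0.42 (adjusted p = 0.0722). Mitsui low was called without NM-401 high animal 2, 3 or 5 or Mitsui high animal 3, and Mitsui high without NM-401 high animal 2 or Mitsui high animal 2 or 3. The lowest adjusted p of these were 0.0322 and 0.0225.

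Inmt, the methyltransferase that adds methyl groups to tryptamine and related amines, fell in every exposed group. Control animals read 5.97, 5.75, 5.82, 5.99 and 5.94. NM-401 low animals read 5.55, 5.23, 5.39, 5.67 and 5.59, and NM-401 high animals 4.75, 4.75, 4.65, 5.25 and 4.83. Mitsui low animals read 5.63, 5.68, 5.23, 5.11 and 5.27, and Mitsui high animals 5.16, 5.32, 5.56, 5.26 and 5.02. All 20 exposed animals lay below the lowest control. The falls were 1.33-fold in NM-401 low (log2 change -0.41, adjusted p = 0.0235), 2.07-fold in NM-401 high (-1.05, adjusted p = 5.36e-07), 1.43-fold in Mitsui low (-0.51, adjusted p = 0.00401) and 1.55-fold in Mitsui high (-0.63, adjusted p = 0.000584), each with SE 0.123. Within slides the changes were -0.60 to -0.23, -1.26 to -0.95, -0.69 to -0.36 and -0.94 to -0.26. The NM-401 low call was lost without control animal 4 or NM-401 low animal 2 or 3 (adjusted p of up to 0.0781). With the Cy5 channel alone the Inmt changes were -0.60, -1.66, -0.93 and -0.95, all past the test. With median centring they were -0.53, -0.58, -0.65 and -0.75, none past the test. As for Cyp4b1, the steps from NM-401 high to the next group and from the highest exposed group to control exceeded the larger SD of the pair, and the 3 groups in between did not separate.

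**Figure D2:**
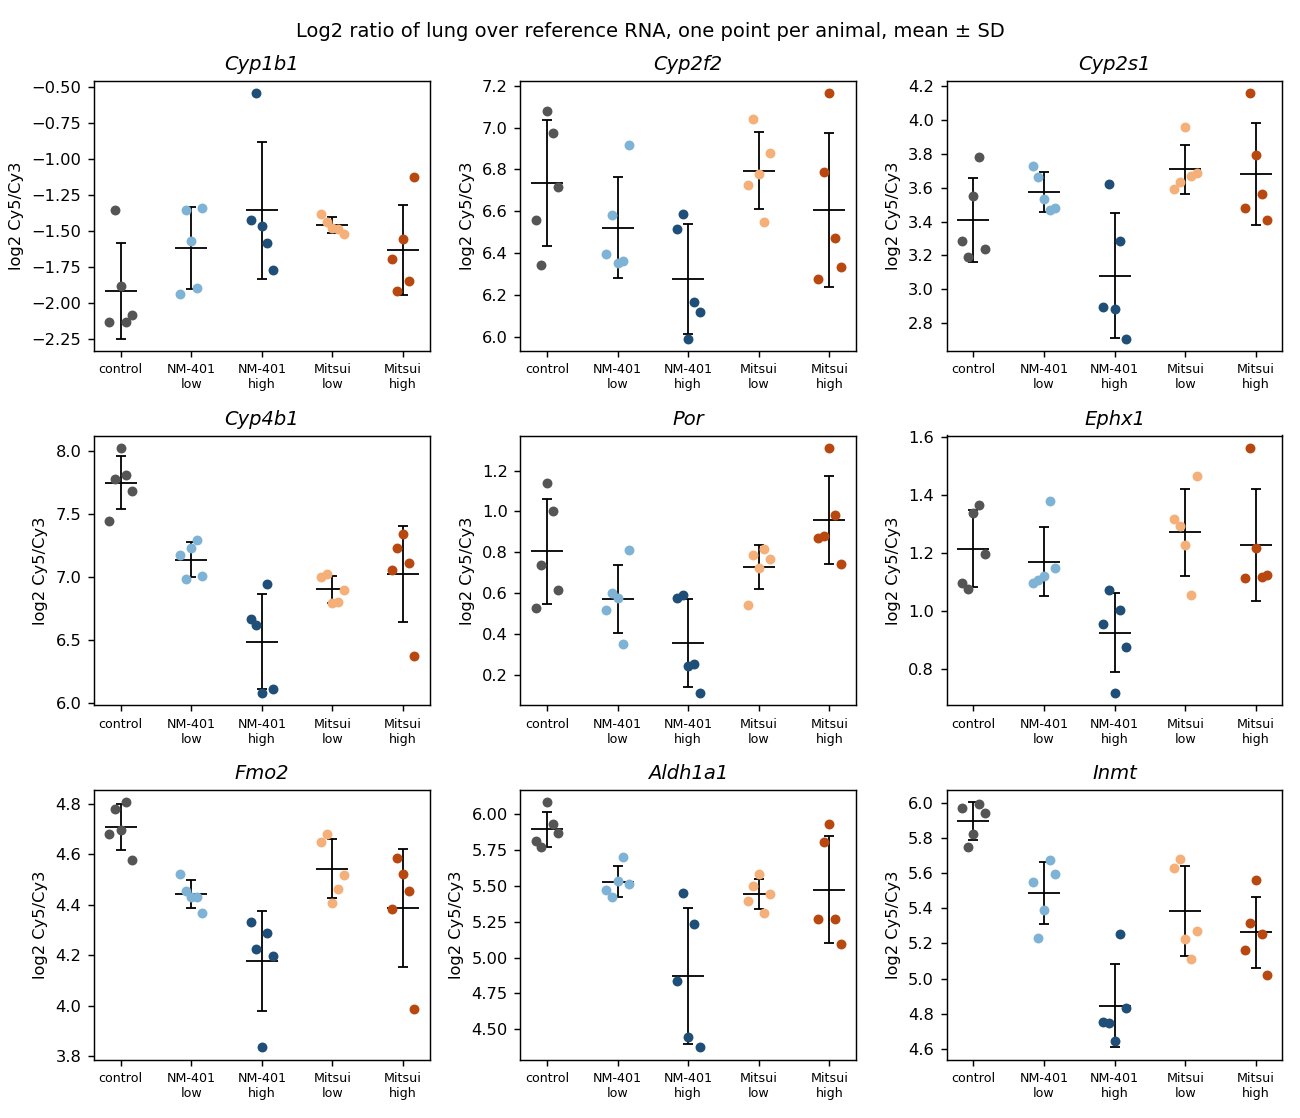
Log2 ratio of lung over reference RNA (y axis, a separate scale per gene) for each of 25 animals in 5 groups, with bars for mean ± SD. In the Inmt and Cyp4b1 panels every exposed animal lies below the lowest control, at 5.75 and 7.44, while in the Cyp2s1 panel only NM-401 high has a mean below control.

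Raising the dose of NM-401 lowered Cyp4b1, Aldh1a1 and Inmt further. In NM-401 high against NM-401 low, Cyp4b1 fell 1.57-fold (log2 change -0.65, SE 0.160, adjusted p = 0.0247), Aldh1a1 1.58-fold (-0.66, SE 0.168, adjusted p = 0.0279) and Inmt 1.56-fold (-0.64, SE 0.123, adjusted p = 0.00711). Of all features 3.84% were called in that comparison and 1.15% were lower. The groups did not overlap for 3 of the 9 genes, Cyp4b1, Ephx1 and Fmo2, against 3.69% of all features, and 1 NM-401 high animal of Aldh1a1 and of Inmt lay within the low-dose range. Within slides the 3 genes kept the sign in 9 of 9 values. The Cyp4b1 call was lost without NM-401 low animal 1 or 4 or NM-401 high animal 3 or 5, and the Aldh1a1 call without any of these or NM-401 high animal 1, with adjusted p of up to 0.0968 and 0.110. With the Feature Extraction ratios Cyp4b1 read -0.38 (adjusted p = 0.475). Cyp2s1 read -0.50 (adjusted p = 0.0674) and passed without NM-401 high animal 2 or Mitsui high animal 2 (adjusted p = 0.0125 and 0.0446). Leaving out NM-401 low animal 1 or 4 or NM-401 high animal 3 or 5 thus left Inmt as the 1 called gene. The other 5 genes lay between -0.27 and 0.26 and did not pass. With the Cy5 channel alone Inmt read -1.06, and Cyp2f2, Ephx1 and Fmo2 passed as well, at -0.69, -0.32 and -0.99. Ephx1 also passed with the slide as a block (-0.32, adjusted p = 0.0278). Of all features 4.98% were called with the Cy5 channel alone and 6.81% with the slide as a block. With median centring Cyp4b1, Aldh1a1 and Inmt read -0.27, -0.14 and -0.05, or -0.57, -0.44 and -0.34 relative to all features, and none passed.

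Raising the dose of Mitsui XNRi-7 gave no called change. limma called 0 of 9 genes in Mitsui high against Mitsui low, and 0 had an unadjusted p under 0.05, where 0% of all features were called. The differences ran from -0.19 for Cyp2f2 (95% interval -0.53 to 0.15) to 0.23 for Por (-0.02 to 0.48). For Cyp4b1 and Inmt they were 0.12 (-0.21 to 0.45) and -0.12 (-0.37 to 0.13). In the main fit a further fall of the size seen between the NM-401 doses thus lay outside both intervals. With Feature Extraction ratios the Cyp4b1 difference was -0.34, for which no interval is given. With median centring the median standard error over all features was 0.309, against 0.0951 in the main fit.

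At matched doses, the materials differed for Por. At the high dose NM-401 animals lay wholly below Mitsui animals, by 1.52-fold (log2 difference -0.60, SE 0.121, adjusted p = 0.0294), where 0.793% of all features were called and 0.331% were lower in NM-401. Por and Ephx1, 2 of the 9 genes, did not overlap between these groups, against 2.67% of all features. The Por difference was -0.74 to -0.33 within slides. Its call was lost without NM-401 high animal 3 or 5 or Mitsui high animal 2, 3 or 4, with an adjusted p of up to 0.105. A further 6 genes had unadjusted p under 0.05 and lower levels in NM-401 high but missed the adjusted threshold. They were Cyp2s1 at -0.60 (adjusted p = 0.0591), Aldh1a1 at -0.61 (0.0791), Inmt at -0.42 (0.0885), Cyp4b1 at -0.54 (0.0908), Ephx1 at -0.30 (0.1002) and Fmo2 at -0.21 (0.258). With the slide as a block 5 genes passed, Por with Cyp2s1, Ephx1, Aldh1a1 and Inmt, and with the replicate number as a block 2 passed, Por and Cyp2s1. With the Cy5 channel alone Por, Cyp2f2, Ephx1 and Inmt passed, the last 3 at -0.83, -0.40 and -0.71. Of all features 2.26% were called with the slide block, 1.06% with the replicate block and 1.21% with the Cy5 channel alone. With median centring Por read -0.07, or -0.40 relative to all features, and did not pass. Without Mitsui high animal 5, Cyp2s1, Cyp4b1, Fmo2, Aldh1a1 and Inmt passed, with adjusted p between 0.0124 and 0.0403. Without NM-401 high animal 2 and animal 4 the count was 3 and 2.

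At the low dose limma called 0 of 9 genes between the materials and 0 had an unadjusted p under 0.05, where 0% of all features were called. The differences of NM-401 low from Mitsui low ran from -0.27 for Cyp2f2 (95% interval -0.61 to 0.07) to 0.23 for Cyp4b1 (-0.10 to 0.57). The interaction of material and dose was called for 0 of 9 genes in limma, with 5 at an unadjusted p under 0.05, against 0.0305% of all features called. Its largest value was -0.77 for Cyp4b1 (SE 0.227, adjusted p = 0.152), followed by -0.69 for Aldh1a1 (SE 0.238, adjusted p = 0.220) and -0.52 for Inmt (SE 0.174, adjusted p = 0.206). Without Mitsui high animal 5 the Cyp4b1 interaction was -0.93 and passed (adjusted p = 0.0288). A different dose response of the materials was thus not shown for these genes by the full set of animals.

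**Figure D3:**
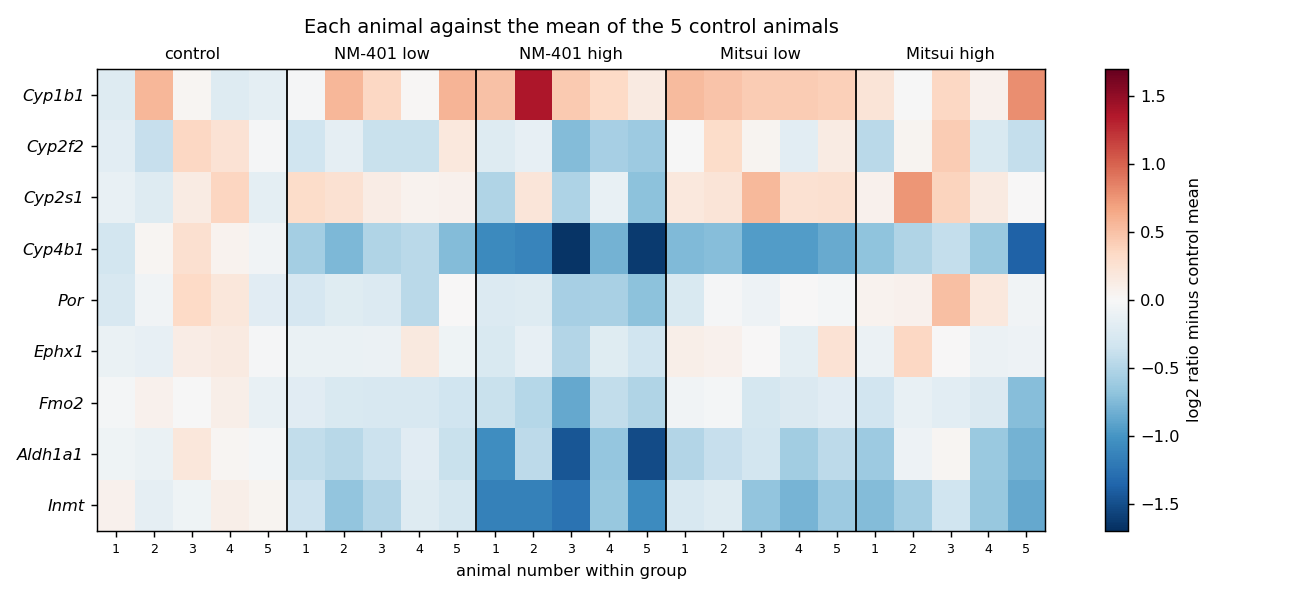
Log2 ratio of each animal minus the mean of the 5 control animals (colour, red above and blue below control) for 9 genes (rows) and 25 animals (columns, by group). The Cyp4b1 and Inmt rows are blue in every exposed animal, and NM-401 high animals 3 and 5 hold the lowest Cyp4b1 and Aldh1a1 values, at 6.08 and 6.11 and at 4.45 and 4.37.

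For the 3 genes with the largest variance ratio over the exposed groups, Inmt, Cyp4b1 and Aldh1a1, the genes nearest in pattern were found by the root mean square difference over the 25 animals, after each gene's control mean was subtracted. Nearest to Inmt were Macf1, a cytoskeletal linker, at 0.138 and Sptbn1, a spectrin, at 0.152, where Inmt itself lay 0.647 from its control mean. Nearest to Cyp4b1 were Efnb2, an ephrin ligand of arterial endothelium, at 0.146 and Jun, an AP-1 transcription factor, at 0.169, against 0.836 for Cyp4b1. Nearest to Aldh1a1 were Gstm2, a glutathione transferase, at 0.169 and Tm4sf1, a membrane protein of endothelium, at 0.175, against 0.614. In NM-401 high these 6 genes differed from control by -0.95, -0.95, -1.40, -1.26, -0.91 and -0.89 in the order named. They were picked for likeness over these same animals, so changes close to those of the members follow from the choice.

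The other genes of xenobiotic metabolism were taken as 6 lists of 147 genes, of which 113 were tested. In NM-401 high 21 rose and 30 fell, which is 45.1% of those tested, against 34.8% of all features. The shares called in NM-401 low, Mitsui low and Mitsui high were 21.2%, 25.7% and 25.7%, against 16.9%, 20.9% and 23.7% of all features. Of 25 other P450s tested, 4 rose and 0 fell in NM-401 low, 6 rose and 5 fell in NM-401 high, 5 rose and 1 fell in Mitsui low, and 4 rose and 4 fell in Mitsui high. Cyp7b1, an oxysterol hydroxylase, rose in all 4 groups by 1.22, 1.66, 1.55 and 1.39 in the same order, and Tbxas1, thromboxane synthase, by 0.66, 0.91, 0.90 and 0.89. Ptgis, prostacyclin synthase, fell by 0.79 in NM-401 high and by 0.52 in Mitsui high. The arachidonate P450 Cyp2j9 fell by 0.73 in NM-401 high and by 0.74 in Mitsui low, and Cyp2d22 by 0.50 in Mitsui high. The median change of the 25 other P450s was 0.024, -0.022, -0.0037 and -0.032, and those that fell and those that rose were of similar number in NM-401 high.

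Among 9 electron transfer partners, 3, 4, 3 and 4 fell in the 4 exposed groups, and 1 rose, Fdxr in Mitsui high (0.19). Pgrmc1, a haem-binding partner of P450s, fell in each group by 0.51, 0.95, 0.58 and 0.57. Cyb5a, cytochrome b5, fell by 0.31, 0.57, 0.29 and 0.36, and Pgrmc2 by 0.35, 0.56, 0.35 and 0.35, also in each group. Of 10 receptors and regulators of these enzymes and their index targets, 1 rose in NM-401 low, 1 rose and 1 fell in NM-401 high, and 0 passed in limma's test in either Mitsui group. In NM-401 high Nfe2l2, which encodes NRF2, rose by 0.25 and Nqo1, a quinone reductase that NRF2 induces, fell by 0.39. Hnf4a, a liver and gut transcription factor, rose by 1.22 in NM-401 low, where the mean of 6 tested liver markers ranged from 1.35 to 4.63 over animals, against 1.42 to 2.32 in controls. The part of those markers in the Hnf4a value was not tested.

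Of 32 other monooxygenases, hydrolases and reductases, 4, 8, 2 and 4 rose and 3, 12, 7 and 3 fell in the same order. Akr1b8, an aldo-keto reductase, rose in all 4 groups by 0.96, 1.42, 1.09 and 1.097, and Akr1c14 fell in all 4 by 0.66, 1.21, 0.95 and 0.75. Fmo1, a relative of Fmo2, fell by 0.59, 1.103, 0.72 and 0.75. Of 20 other alcohol and aldehyde dehydrogenases, 3, 3, 3 and 2 rose and 2, 4, 3 and 3 fell. Aldh2, the mitochondrial acetaldehyde dehydrogenase, fell by 0.40, 0.69, 0.51 and 0.59 and Aldh6a1 by 0.50, 0.79, 0.62 and 0.63, while Aldh1b1 rose by 0.44, 0.79, 0.53 and 0.44. Of 17 conjugation enzymes, 1, 3, 2 and 2 rose and 3, 4, 3 and 2 fell. Sult2b1, a sterol sulphotransferase, rose by 0.72, 0.88, 1.08 and 0.99. Sult1d1, a sulphotransferase of small phenols, fell by 0.73, 1.17 and 1.08 in NM-401 low, NM-401 high and Mitsui low, and read -0.62 in Mitsui high (adjusted p = 0.0743). Mat2a, which makes the methyl donor that Inmt uses, fell by 0.36, 0.61, 0.64 and 0.59.

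**Figure D4:**
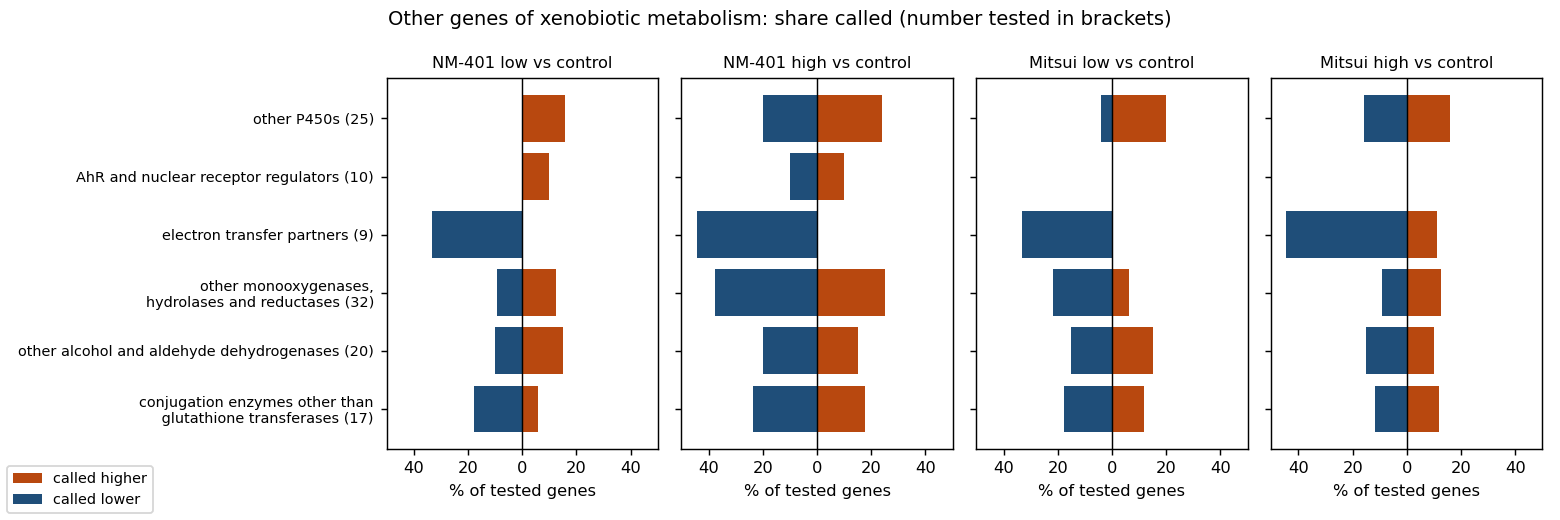
Share of tested genes called higher (right of 0) and lower (left of 0) against control in 6 lists of other xenobiotic metabolism genes, for each exposed group (x axis in percent of tested genes, number tested in brackets). In NM-401 high, 12 of 32 monooxygenases, hydrolases and reductases fell and 8 rose, and among 25 other P450s 5 fell and 6 rose.

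Markers of several lung cell types also differed from control, some lists mainly lower and others mainly higher. Over all features, 16.9%, 34.8%, 20.9% and 23.7% were called in either direction in the 4 exposed groups. Of 17 fibroblast and stromal markers, 8, 9, 9 and 9 fell in the 4 exposed groups and 1, 2, 0 and 4 rose, and the list mean over animals was 2.33 to 2.47 in control and 1.82 to 2.15 in NM-401 high. Of 16 endothelial markers 5, 10, 7 and 7 fell and 0 rose in any group, with list means of 4.03 to 4.21 in control and 3.30 to 3.61 in NM-401 high. Of 11 alveolar type 1 markers 5, 9, 6 and 6 fell and 0, 1, 0 and 0 rose, with list means of 3.90 to 4.28 in control and 3.41 to 3.74 in NM-401 high. Of 13 alveolar type 2 markers 4, 6, 9 and 6 rose and 0 fell, and of 13 macrophage and monocyte markers 7, 8, 6 and 5 rose and 0, 1, 1 and 1 fell. Club cell markers rose for 2, 3, 3 and 3 of 13 genes and fell for 0, 3, 0 and 1, and ciliated cell markers rose for 0, 0, 4 and 5 of 11 and fell for 0, 1, 0 and 1. Of 9 neutrophil markers 0, 3, 1 and 1 rose, and of 11 lymphocyte markers 1, 2, 0 and 1 rose, with 0 falls in limma in both lists. Of 10 cardiac muscle markers 2 fell in NM-401 high, with list means of 1.23 to 2.85 in control and 0.78 to 2.23 in NM-401 high, and of 6 liver markers 1 fell in NM-401 high. Macf1, named above as nearest to Inmt, is in the fibroblast and stromal list. Aldh3a1 and Cbr2 are in the club cell list and also in the lists of other xenobiotic enzymes. The marker lists are thus not wholly separate from the genes above. The part of these cell types in the enzyme values was not tested.

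**Figure D5:**
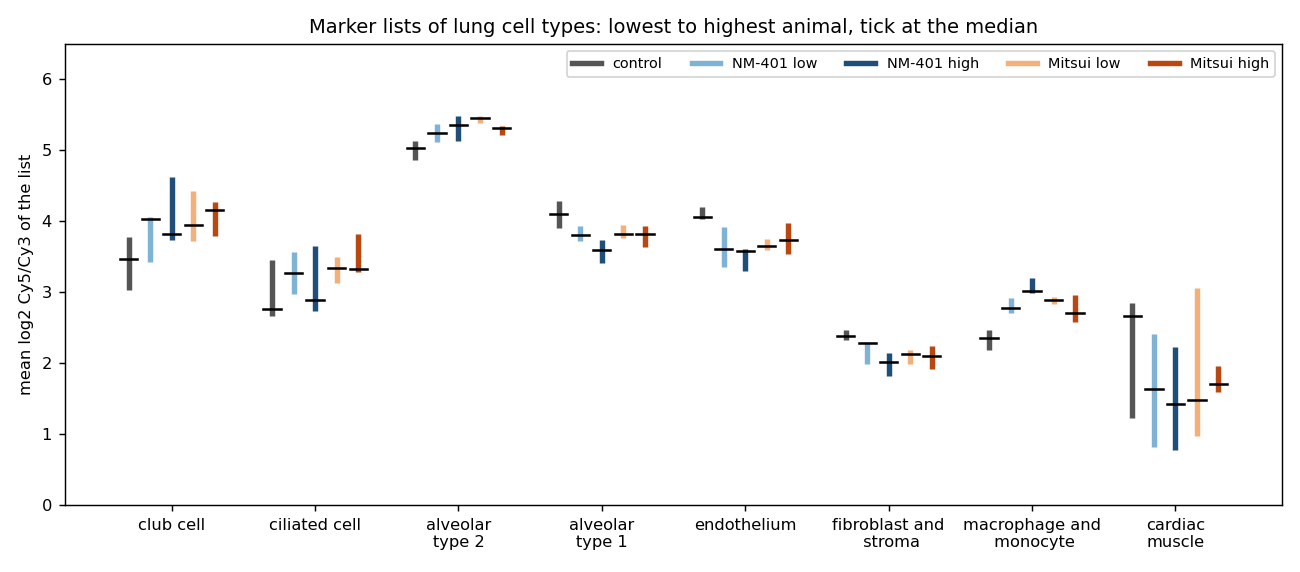
Mean log2 ratio of 8 marker lists (y axis), with a bar from the lowest to the highest of 5 animals per group and a tick at the median. The endothelial list of NM-401 high, at 3.30 to 3.61, lies below that of control, at 4.03 to 4.21, and the macrophage list of NM-401 high, at 2.99 to 3.20, above that of control, at 2.18 to 2.46.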

How the data were processed

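Lung RNA of 25 mice was measured on 26 2-colour arrays over 4 slides, with animal RNA in Cy5 and universal mouse reference RNA in Cy3. The 2 arrays of Mitsui low animal 5 were averaged. The scanner files hold spot intensity values as median signals, log10 ratios of Cy5 over Cy3 and flags for signal well above background, deposited as Agilent Feature Extraction 11.0.1.1 wrote them per the file headers, with design build mm9. The authors' deposited value table holds log2 ratios whose normalization is not given in the sources used here. Set against the scanner values, it runs as Cy5 over Cy3, and its 26 column medians lie between -0.040 and -0.018.

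Median signals were background-corrected (normexp, offset 50) and loess-normalized within arrays with limma 3.58.1 in R 4.3.3, leaving out outlier spots (0.461%). Probes whose Cy5 signal passed that test in 4 or more animals of any group were kept (30466 of 55681), with 1 probe per gene, that of highest mean intensity, giving 22950 features, 14838 of them with a symbol. A group-means model over all 5 groups with eBayes gave each contrast. The fit was also run on simulated data whose means and spread were taken from these data. The members and lists were chosen with earlier results of these data known, so no p was adjusted over them alone. Intervals are 95%. From each other list the text names up to 2 called genes per direction and exposed group, those with the largest change, except 1 gene that is not reported here. Genes with the closest pattern are the 2 nearest to each of the 3 members with the largest moderated F. Alternatives changed background, normalization, ratio source, filter, probe choice, blocks, variance model, repeated array and channel (Cy5 alone after loess and Aquantile), and left out each animal in turn. Replicate numbers were not a block in the main model, since the labels do not say that they mark a shared litter, batch or day. Over 50 same-numbered pairs the correlation of deviations ran from -0.38 to 0.41, with 12 above 0.1. Differently numbered pairs were not set beside them, so a pairing is not settled. NM-401 high had no array on slide 2. p-values measure the spread between these animals. Motifs were searched in RefSeq upstream windows (GRCm38.p6), and the proteins were not used here.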

Additional observations from a re-analysis of the deposited data

Results flagged for a closer look

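Of 45 groups of 5 animals over the 9 genes, 6 held an animal whose gap to the nearest other exceeded 0.71 of the group's range, where chance gives about 1 in 20. These were NM-401 high animal 2 for Cyp1b1, high at -0.54, and Mitsui low animal 3 for Cyp2s1, high at 3.96. Mitsui high animal 5 was low for Cyp4b1, at 6.37. For Ephx1, NM-401 low animal 4 was high at 1.38 and Mitsui high animal 2 was high at 1.56. NM-401 high animal 3 was low for Fmo2, at 3.83. No other value of these genes met the rule.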

How the results depend on the processing

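Of the 19 called values of single genes, all kept call and sign without background subtraction, without the filter, with the slide or the replicate block, with a trended robust variance model, with either array of the repeated animal alone and with the Cy5 channel alone. The authors' table kept 18, the mean of probes 18, Feature Extraction ratios 15 and median centring 0.

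Counts of called genes that moved by over 1.5 times were these. Median centring gave 0 in each of the 6 comparisons that had calls, where of all features 1064 were called in NM-401 high, 951 of them higher, against 7976 and 4222. Feature Extraction ratios gave 1 in NM-401 low and 1 in Mitsui low, and the values deposited by the authors 1 in NM-401 low and 2 between materials at the high dose. Of all features these settings called 17.8%, 21.1%, 17.7% and 1.14% in the same order. The slide block gave 5 between materials at the high dose, where 2.26% of all features were called, and the replicate block 2, against 1.06%. The Cy5 channel alone gave 6 for NM-401 high against low, where 4.98% of all features were called. It gave 4 between materials at the high dose, against 1.21%. Smaller moves were to 3 in NM-401 low with either block or the Cy5 channel alone, to 3 in Mitsui low with that channel or the authors' table, to 4 in Mitsui high with that table, to 7 in NM-401 high with the mean of probes, and to 2 and 4 for NM-401 high against low with Feature Extraction ratios and the slide block. The genes gained were Fmo2 in NM-401 low and, with Cy5 alone, in Mitsui low, and Aldh1a1 in both Mitsui groups with the authors' table and in Mitsui high with Feature Extraction ratios. Leaving out 1 animal gave 1 to 3 in NM-401 low, 5 to 8 in NM-401 high, 2 to 4 in each Mitsui group, 1 to 4 for NM-401 high against low, 0 to 6 between materials at the high dose, 0 to 1 for the interaction and 0 otherwise. The cause was not tested. The replicate block changed no called value, and it added Fmo2 in NM-401 low and Cyp2s1 between materials at the high dose.

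Signs turned in these cases, of which Ephx1 in NM-401 high and Cyp4b1 in Mitsui low had been called. Under median centring Ephx1 read 0.041 in NM-401 high, -0.20 in Mitsui low, -0.21 in Mitsui high, 0.28 for NM-401 high against low, 0.25 between materials at the high dose and 0.29 for the interaction. Cyp2f2 read -0.13 in Mitsui low, 0.32 for NM-401 high against low, 0.29 between materials and 0.51 for the interaction, and Fmo2 0.19, 0.24 and 0.32 for the last 3. Por read -0.070 in Mitsui high, 0.24 for NM-401 high against low and 0.020 for the interaction. Inmt read 0.17 between materials and 0.053 for the interaction, and Cyp2s1 -0.028 in NM-401 low. With Feature Extraction ratios Cyp4b1 read 0.093 in Mitsui low, -0.34 for Mitsui high against low and -0.46 between materials at the low dose. There Fmo2 read 0.018 in Mitsui low and 0.12 for the interaction, and Ephx1 and Aldh1a1 0.017 and -0.017 for Mitsui high against low. The authors' table gave Cyp2f2 -0.042 in Mitsui low and Ephx1 -0.032 in Mitsui high, and the mean of probes Ephx1 -0.0020 there. The Cy5 channel alone gave Cyp2f2 -0.36 in Mitsui low and 0.065 for Mitsui high against low, Ephx1 -0.0093 and -0.015 in Mitsui low and high, and Fmo2 0.34 between materials at the low dose. Of the 72 changes that the naming rule picked from the other lists, all kept their sign except 2 under median centring.

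Leaving out 1 animal turned the sign of no called value. It turned Ephx1 in Mitsui high (to between -0.072 and 0.050 over all animals), Cyp2f2 in Mitsui low (-0.038 to 0.15), Por in Mitsui low (-0.15 to 0.0067) and the Cyp2f2 interaction (-0.14 to 0.081). For Mitsui high against low it turned Cyp2s1 (-0.15 to 0.039), Aldh1a1 (-0.086 to 0.12) and Ephx1 (-0.13 to 0.0038). The files hold no mean spot signal, so the mean in place of the median signal was not run. Within a group, 5 animals limit the precision, and Cyp1a1 and the Cy3 signal of Cyp4b1 are limited by background.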
